A study of Mus musculus with 6 samples.

Results

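The genes described here carry out mitosis: 43 genes of mitotic entry, the spindle checkpoint, the kinetochore, condensin I, the spindle and cytokinesis, chosen by name from the 21936 genes of the deposited table. All 43 were found in it. Messenger RNA was measured in PAM212 cells, a mouse line whose sample labels say keratinocyte, while the series' design line speaks of melanocytes. Lentiviral infection brought the mouse miR-28-3p gene into the cells of 3 overexpression libraries. The 3 controls were PAM212 libraries labelled as not treated, and all cells were grown in DMEM with 10% FBS. The labels do not say whether control cells carried an empty virus, whether infected cells were 1 clone or a pool, or whether replicates came from different cultures. The p-values therefore measure the spread between these libraries, which may be technical only.

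The libraries held between 14309898 and 16383374 counted reads. Of 11 keratinocyte markers, 5 reached 1 FPKM (reads scaled by gene length and by the library's counted reads) in a group, and together they summed to 969 to 993 CPM (the counts-per-million scale, with edgeR's TMM factors) in the controls and 1063 to 1100 with overexpression. The basal and wound keratins Krt5 and Krt6a had 0 counts in all 6 libraries, where a count of 0 allows up to 0.183 to 0.21 CPM, and Trp63, the master factor of stratified epithelium, had 14, 17 and 22 counts in the controls and 0, 5 and 0 with overexpression. Of the 11, edgeR called 4 higher (Krt14, Dsp, Col17a1 and Cdh1) and 4 lower (Trp63, Dsg3, Perp and Itgb4). The desmosomal cadherin Dsg3 had 54, 38 and 39 counts against 3, 3 and 7. The 4 simple-epithelium keratins Krt7, Krt8, Krt18 and Krt19 summed to 4605 to 4678 CPM in the controls and 3400 to 3430 with overexpression. Markers of other cell types stood low. The 8 melanocyte markers summed to 8.05 to 9.78 against 7.33 to 8.22 CPM, with Tyr and Kit at 0 counts throughout. Their members went opposite ways. Tyrp1 and Dct had 0 counts in every control and 7 to 18 and 8 to 13 counts with overexpression, while Mitf and Pmel fell 1.43-fold and 2.18-fold. The 8 fibroblast markers summed to 43.3 to 52.0 against 16.2 to 17.1, the 6 leukocyte markers to 17.28 to 21.02 against 4.23 to 6.01, and the 4 endothelial markers to at most 0.758. The part of these shifts in the results below was not tested.

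A cell enters mitosis when the kinase CDK1, bound to cyclin A or B, is switched on, and leaves it when the cyclins and securin are destroyed by the anaphase-promoting complex. In between, condensin and topoisomerase II compact the chromosomes, the kinetochore links them to spindle microtubules, and the spindle checkpoint holds back the activator CDC20 until every chromosome is attached. Most of these genes are transcribed late in the cell cycle from promoters that carry a cell cycle homology region and boxes for the factor NF-Y, so that their messages are low in resting cells and high in dividing ones. In skin the proliferating cells lie in the basal layer, and MKI67 protein is the usual stain for them.

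All 43 mitosis genes were higher with miR-28-3p overexpression, of which Pttg1 alone changed sign (log2 -0.06) with upper quartile scaling. Their messages together took 0.354% to 0.361% of the counted reads in the control libraries and 0.987% to 0.988% in the overexpression libraries. In edgeR's quasi-likelihood test 43 of 43 passed an adjusted p under 0.05 (Benjamini-Hochberg over the 11809 genes tested) and 0 were lower. The background was large, since 86% of all tested genes were called in either direction, 42.1% higher and 43.9% lower. The median log2 fold change of the 43 was 1.33, a 2.52-fold rise, beside -0.03 for all tested genes. Rises of more than 2-fold were seen in 31 of the 43, against 14.8% of all tested genes, and rises of more than 4-fold in 12, against 2.68%. In 42 of the 43 the lowest overexpression library was higher than the highest control, as it was in 42.2% of all tested genes. The exception was Pttg1, which had the smallest change as deposited (with length and GC offsets the smallest was Bub3, at 0.16 on the log2 scale). The counts by role below stand beside these shares of all tested genes. In bulk RNA, a larger share of cells in mitosis and more message per mitotic cell cannot be told apart.

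**Figure D1:**
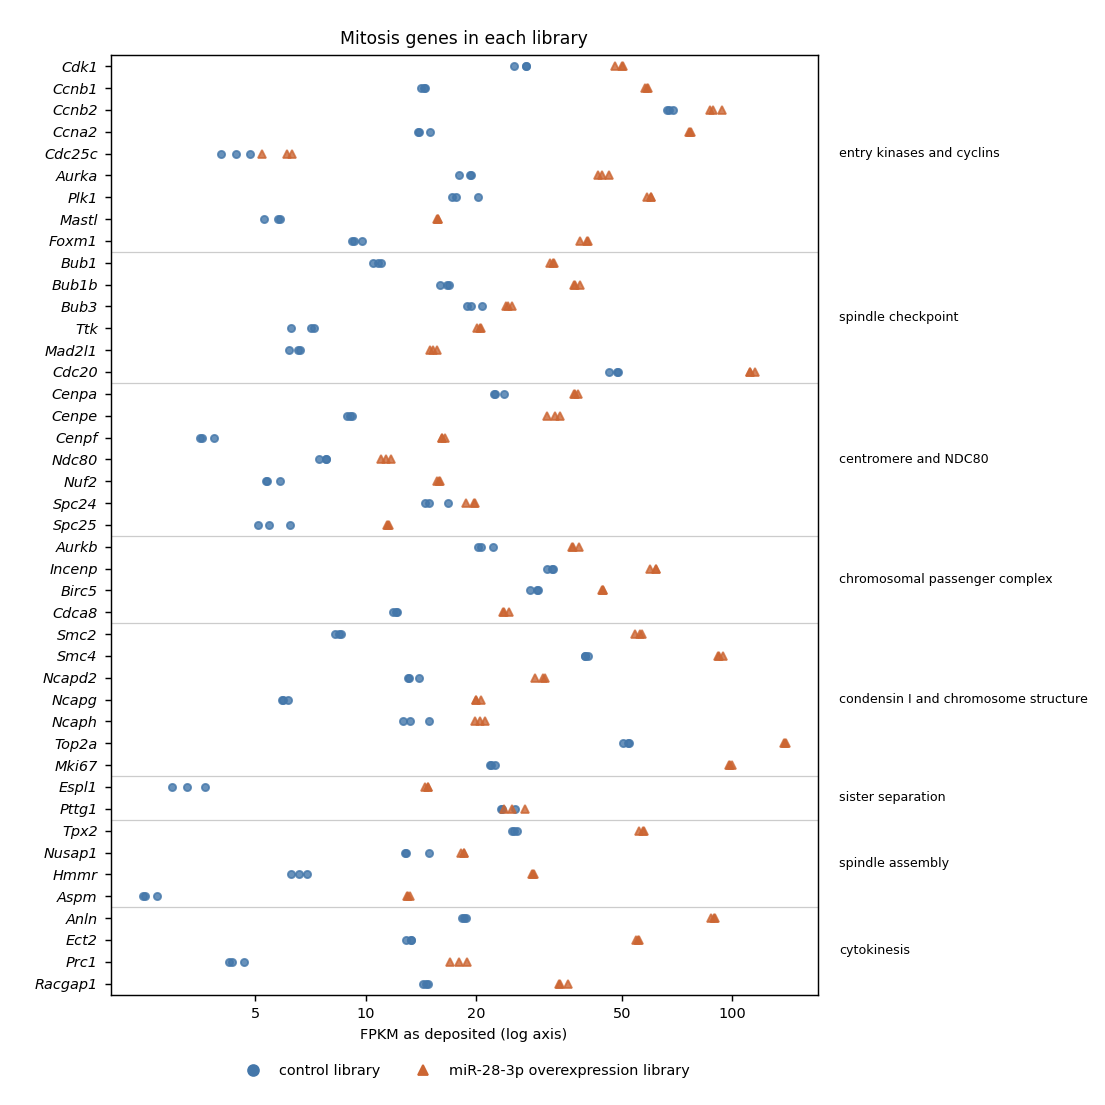
FPKM of each of the 43 mitosis genes (vertical axis, grouped by role) in each library on a log axis. Circles are the 3 control libraries and triangles the 3 overexpression libraries. The triangles lie to the right of the circles for 42 genes, and the groups overlap for Pttg1.

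The list spanned a 7.06-fold rise for Smc2 to a 1.12-fold rise for Pttg1. Levels per gene length ran from 2.55 FPKM (Aspm) to 67.5 FPKM (Ccnb2) in the controls. With overexpression they ran from 5.87 FPKM (Cdc25c) to 139 FPKM (Top2a). By role, the median log2 fold change was 2.14 for the 4 cytokinesis genes, 1.73 for 4 spindle assembly genes, 1.57 for 9 entry genes and 1.53 for 7 genes of condensin I and chromosome structure. It was lower for 6 checkpoint genes (1.34), 7 genes of the centromere and NDC80 complex (1.13) and 4 genes of the chromosomal passenger complex (0.97). With length and GC offsets the order changed, with entry genes at 1.88 and cytokinesis genes at 1.78. No test between roles was made, and members of a role are not replicates.

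The promoters show what most members share beyond their function. RefSeq promoter windows on GRCm38.p6, from 250 bases before the transcription start to 50 after, were at hand for 35 of the 43 genes (38 windows). They were searched on both strands for TTTGAA, the core of the cell cycle homology region, for CCAAT, the NF-Y box, and for GCGGGAA, an E2F-like motif. TTTGAA was found in 28 of the 38 windows (73.7%), against 11.8% of the 12117 windows of tested genes and 17.9% of all 32851 windows. CCAAT was found in 30 (78.9%), against 37.7% and 37.4%. Both stood together in 26 (68.4%), against 4.78% and 6.95%. Within 50 bases of the start, TTTGAA was held by 25 of the 38 member windows (65.8%) and by 2.96% of the windows of tested genes. GCGGGAA was found in 1 (2.63%), against 8.32% and 4.60%. TTTGAA and CCAAT do not overlap as motifs. A match is a string of letters, and no binding was measured here.

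Windows of 4 genes are printed 5′ to 3′ on the strand of the gene, with each TTTGAA or CCAAT in capitals, or its reverse complement TTCAAA or ATTGG. They were chosen after their values were seen, to set motif content beside the size of the rise.
Smc2 (chr4:52438971-52439270, plus strand), 7.06-fold higher, with 2 cores and 1 NF-Y box: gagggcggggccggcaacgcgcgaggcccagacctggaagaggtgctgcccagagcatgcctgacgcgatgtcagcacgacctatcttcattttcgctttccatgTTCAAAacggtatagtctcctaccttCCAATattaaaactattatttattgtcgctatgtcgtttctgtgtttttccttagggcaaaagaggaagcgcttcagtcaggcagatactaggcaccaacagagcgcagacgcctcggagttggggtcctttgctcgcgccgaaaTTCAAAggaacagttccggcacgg
Hmmr (chr11:40733388-40733687, minus strand), 4.64-fold higher, with 5 NF-Y boxes and a homology core: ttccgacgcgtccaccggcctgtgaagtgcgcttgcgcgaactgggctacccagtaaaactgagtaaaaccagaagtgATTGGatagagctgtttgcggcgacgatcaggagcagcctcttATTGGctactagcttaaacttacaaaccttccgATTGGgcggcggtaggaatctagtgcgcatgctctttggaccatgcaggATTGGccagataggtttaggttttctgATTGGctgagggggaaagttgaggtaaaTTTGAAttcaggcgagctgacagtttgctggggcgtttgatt
Ccnb2 (chr9:70421505-70421804, minus strand), 1.42-fold higher, with 3 NF-Y boxes and a core just after the start: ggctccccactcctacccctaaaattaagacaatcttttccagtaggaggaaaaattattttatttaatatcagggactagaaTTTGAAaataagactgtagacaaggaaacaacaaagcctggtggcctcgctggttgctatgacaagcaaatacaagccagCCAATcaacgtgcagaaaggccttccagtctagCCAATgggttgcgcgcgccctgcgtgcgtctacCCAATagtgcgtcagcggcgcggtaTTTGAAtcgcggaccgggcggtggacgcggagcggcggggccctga
Anln (chr9:22389157-22389456, minus strand), 5.11-fold higher, with 2 cores on opposite strands and no NF-Y box: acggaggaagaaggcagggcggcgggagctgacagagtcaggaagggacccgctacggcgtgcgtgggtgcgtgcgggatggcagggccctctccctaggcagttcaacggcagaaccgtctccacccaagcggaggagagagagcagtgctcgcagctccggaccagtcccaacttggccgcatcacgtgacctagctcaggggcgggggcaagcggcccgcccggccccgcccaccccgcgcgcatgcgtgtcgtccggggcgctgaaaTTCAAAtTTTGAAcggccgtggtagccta

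Ccnb2, with both motifs, rose less than Anln, with homology cores only. With offsets for gene length and GC content their log2 changes were 1.04 and 1.92. In Ccnb2 the boxes began at -87, -54 and -21 from the start and the 2 cores at -167 and 5. In Anln both cores began after the start, at 22 and 29. Over the genes with a window, the 25 with TTTGAA had a median log2 fold change of 1.53 and the 10 without it 1.46. The 27 with CCAAT had a median of 1.67 and the 8 without it 0.70. In 6 genes neither motif was found. Birc5, Mad2l1, Ncaph, Nuf2, Nusap1 and Pttg1 lacked both TTTGAA and CCAAT in this window. The window of Pttg1 lies wholly inside the deposited gene, its start 270 bases downstream of the gene's 5′ end, so the sequence before that end was not searched. The only window of Cdca8 and 1 of the 2 of Bub3 also lie wholly inside the gene. These shares and medians are descriptions with no test.

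**Figure D2:**
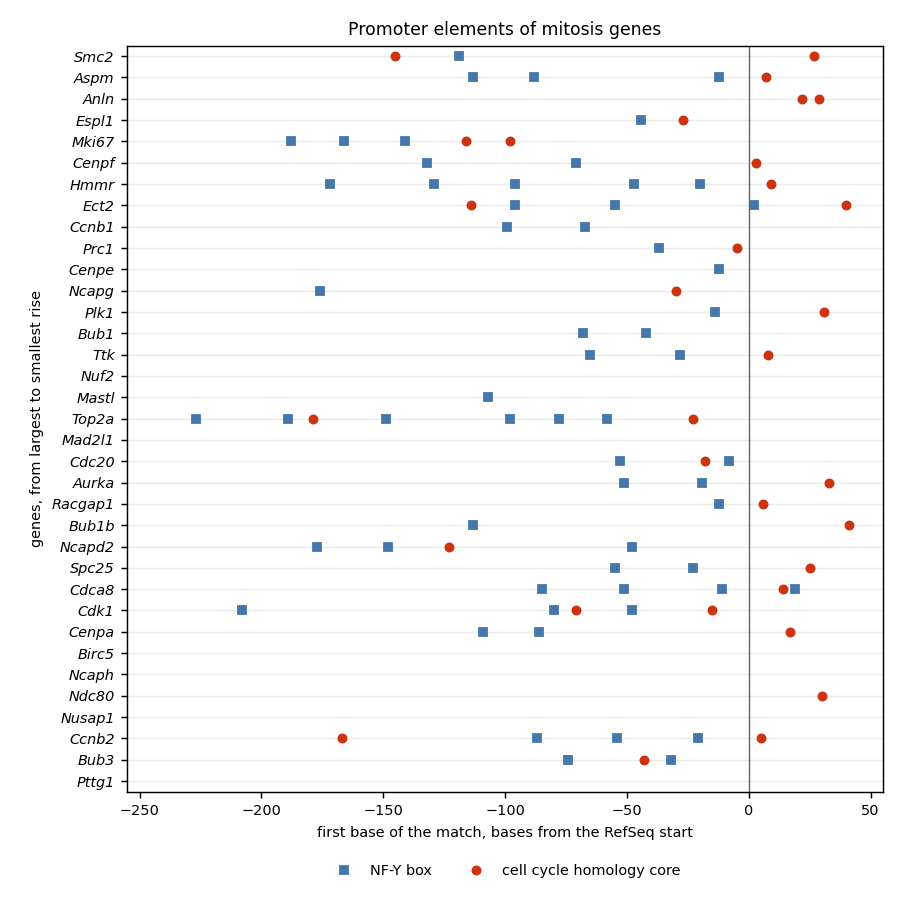
Position of NF-Y boxes (squares) and cell cycle homology cores (circles) in the promoter window of 35 mitosis genes, in bases from the RefSeq start. Where a gene has several windows the one listed first is drawn. Genes are ordered from the largest rise (top) to the smallest, and 6 rows hold no symbol. Pttg1, the bottom row, whose window lies inside its gene, is higher by only 0.17 on the log2 scale and stood at -0.06 with upper quartile scaling.

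Among the genes of mitotic entry, all 9 rose, beside 42.1% of all tested genes called higher. Ccna2, which encodes the cyclin of S phase and mitotic entry (ENSMUSG00000027715, chromosome 3, 36564865 to 36572150 on GRCm38), had 54.7, 55.3 and 59.2 CPM in controls and 324, 321 and 325 with overexpression. The change on the log2 scale was 2.52 ± 0.04 (± SE, n = 3 against 3, edgeR adjusted p = 9.5e-56). The groups lie more than 5-fold apart, with little spread inside each. Its exons share 510 bases with those of Exosc9 on the opposite strand, and reads of the pair cannot be told apart without strand. Ccnb1, the main mitotic cyclin (ENSMUSG00000041431, chromosome 13, 100778650 to 100786570), had 57.7, 59 and 59.4 CPM against 251, 257 and 255, a 4.33-fold rise (log2 2.12 ± 0.04, edgeR adjusted p = 4.83e-51).

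Ccnb2, the second B-type cyclin (ENSMUSG00000032218, chromosome 9, 70407692 to 70421547), moved far less as deposited. It had 98.2, 99.7 and 103 CPM in controls and 148, 138 and 141 with overexpression, a 1.42-fold rise (log2 0.50 ± 0.04, edgeR adjusted p = 2.42e-18), and the groups did not overlap. The kinase gene Cdk1 itself (ENSMUSG00000019942, chromosome 10, 69335146 to 69352938) rose 1.97-fold, from 121, 131 and 131 to 244, 257 and 255 CPM. With length and GC offsets the log2 change was 1.04 for Ccnb2, 0.92 for Cdk1 and 2.05 for Ccnb1. The balance between the cyclins and their kinase thus changed. Per deposited gene length the ratio of Ccnb1 to Cdk1 was 0.558, 0.526 and 0.53 in the controls and 1.2, 1.17 and 1.17 with overexpression. The level of such a ratio depends on the lengths used, so only its change between groups is read here. For Ccna2 the ratio went from 0.546, 0.51 and 0.545 to 1.6, 1.51 and 1.54. For Ccnb2 it went the other way, from 2.62, 2.45 and 2.52 to 1.95, 1.73 and 1.78, but with length and GC offsets its log2 change of -0.48 became 0.12. None of the 3 ratios overlapped between groups as deposited, and each had an exact two-sided permutation p of 0.1, the smallest that 3 against 3 can give, or 0.119 after Benjamini-Hochberg adjustment over the 19 pairs examined.

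The entry kinases rose too. Plk1, the polo-like kinase that helps to activate CDK1, had 36.5, 37.5 and 43.1 CPM in controls and 136, 136 and 133 with overexpression (3.46-fold, log2 1.79 ± 0.05), and its log2 change became 2.66 with length and GC offsets. Aurka, the centrosomal Aurora kinase, went from 47.4, 44.1 and 47.2 to 112, 120.4 and 116 CPM (2.51-fold). Mastl, the Greatwall kinase that restrains the phosphatase opposing CDK1, went from 32.7, 29.5 and 32.2 to 93.8, 93.1 and 94.2 CPM (2.98-fold). The lowest overexpression library had 112 CPM for Aurka, 133 for Plk1 and 93.1 for Mastl, above every control library of the same gene. Foxm1, the transcription factor of late cell cycle genes (ENSMUSG00000001517, chromosome 6, 128362967 to 128376146), rose 4.49-fold, from 51.8, 51 and 54.6 to 228, 240.3 and 239 CPM (log2 2.17 ± 0.04, edgeR adjusted p = 5.46e-50). Cdc25c, the phosphatase that removes the inhibitory marks from CDK1, stood lowest of the entry genes. It had 23, 21.2 and 19.2 CPM against 32, 26.4 and 31.1, a 1.41-fold rise (edgeR adjusted p = 2.95e-07) with the largest SE of the entry genes, and 623 of its exonic bases are shared with Gm3550 on the opposite strand.

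**Figure D3:**
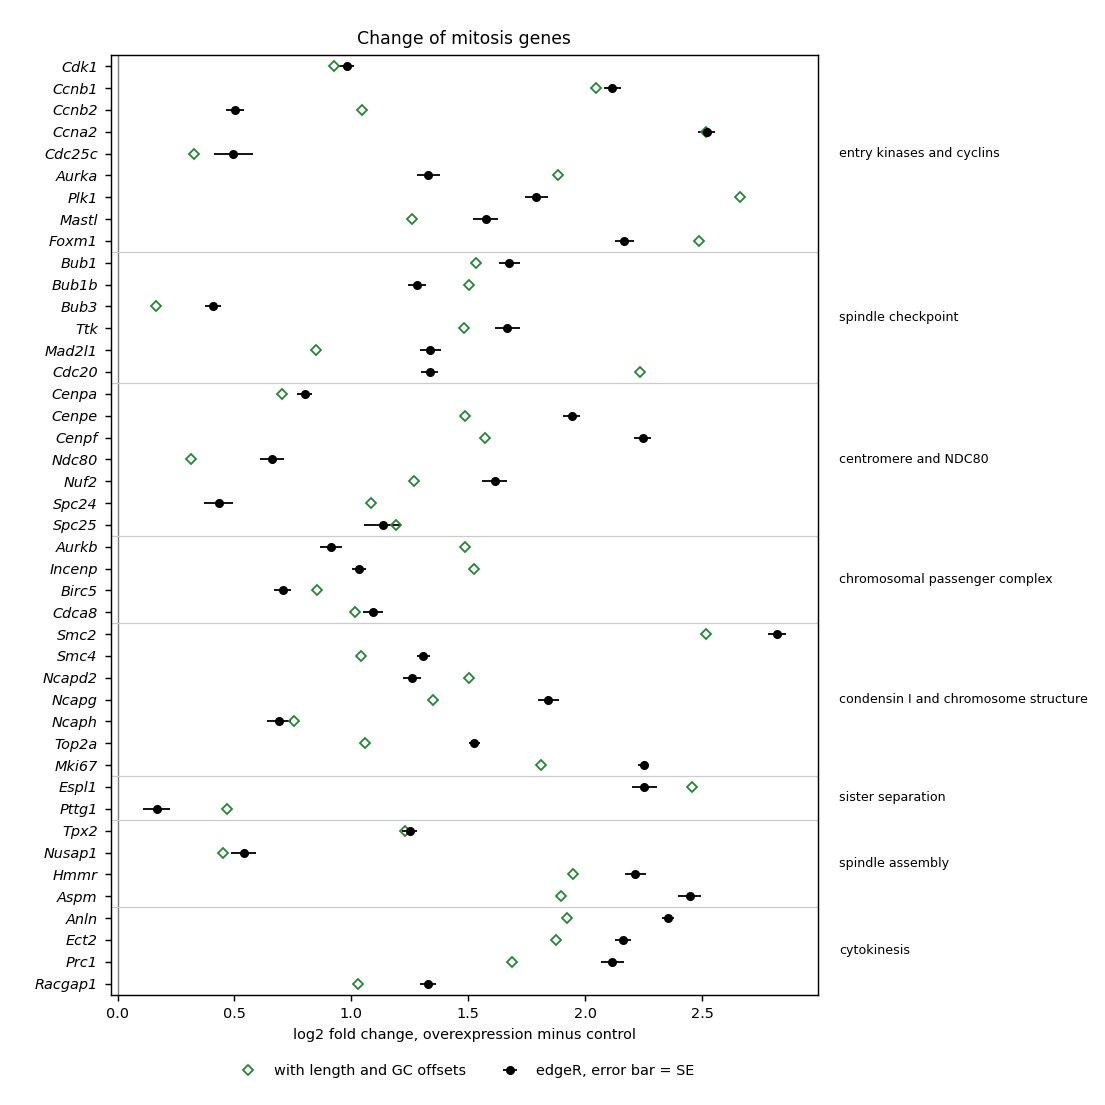
The log2 fold change of each mitosis gene, overexpression minus control (horizontal axis), from edgeR with its SE as the bar (filled circles), and the value with length and GC offsets (open diamonds). All symbols lie above 0, from 0.16 (Bub3 with offsets) to 2.82 (Smc2). Pttg1, at 0.17 and 0.47, stood at -0.06 with upper quartile scaling.

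All 6 spindle checkpoint genes rose, beside 42.1% of all tested genes called higher, but not evenly. The kinases Bub1, Ttk (known as MPS1, which starts the checkpoint signal) and the pseudokinase Bub1b (BUBR1) rose 3.19-fold, 3.18-fold and 2.43-fold. Bub1 had 46.2, 44.3 and 45.7 CPM in controls and 143, 146 and 146 with overexpression. Mad2l1, whose protein binds and holds CDC20, had 53.1, 50.1 and 53.9 against 132, 129.7 and 136 CPM (2.53-fold), and Cdc20 had 83.4, 88.4 and 87.7 against 216, 223 and 216 CPM (2.52-fold). Neither pair of groups overlapped.

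Bub3, the adaptor that carries BUB1 and BUBR1 to kinetochores and that is also present outside mitosis, changed least in this group. It had 128, 141 and 132 CPM in controls and 181, 176 and 175 with overexpression, 1.33-fold higher (log2 0.41 ± 0.04, edgeR adjusted p = 2.78e-16), and 0.16 on the log2 scale with length and GC offsets. Bub1 per Bub3 message, per gene length, therefore went from 0.58, 0.504 and 0.559 to 1.27, 1.34 and 1.34, and Bub1b per Bub3 from 0.889, 0.766 and 0.861 to 1.48, 1.53 and 1.59 (exact permutation p = 0.1 for each). With the deposited lengths both ratios went from below to above 1, and where a ratio crosses 1 depends on these lengths. Cdc20 per Mad2l1 was 7.05, 7.92 and 7.31 against 7.36, 7.71 and 7.14. These groups overlapped (exact permutation p = 1) as deposited, whereas with length and GC offsets the log2 ratio was higher by 1.39. Cdc20 is among the shortest genes of the list (1868 bases, GC 55.6%) and Mad2l1 among the longer ones (8390 bases, GC 40.1%).

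At the centromere, all 7 genes rose, beside 42.1% of all tested genes called higher. Cenpf, a large coiled-coil protein of the outer kinetochore (ENSMUSG00000026605, chromosome 1, 189640606 to 189688086), had 57.4, 53.6 and 52.9 CPM in controls and 256, 263 and 259 with overexpression (4.74-fold, log2 2.25 ± 0.04, edgeR adjusted p = 1.01e-51). With length and GC offsets its log2 change was 1.57. Cenpe, a kinesin that moves chromosomes to the spindle equator, rose 3.84-fold, from 75.7, 74.3 and 76.9 to 302, 277 and 292 CPM. Cenpa, the histone H3 variant that marks the centromere, rose 1.74-fold, from 128, 127 and 135 to 225, 230.0 and 225 CPM. The groups of all 3 stood apart.

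The 4 subunits of the NDC80 complex, the microtubule grip of the kinetochore, rose by different factors although their proteins work as 1 assembly. Nuf2 rose 3.06-fold, from 32.9, 32.8 and 35.9 to 104, 104 and 103 CPM, and its partner Ndc80 rose 1.58-fold, from 48.9, 48.9 and 46.9 to 73.8, 76.1 and 78.6 CPM. Spc25 rose 2.2-fold, from 19.1, 16.9 and 15.7 to 37.7, 38 and 37.8 CPM, and its partner Spc24 rose 1.35-fold, from 36.1, 41.7 and 37.2 to 52.3, 52.9 and 49.96 CPM. As deposited, Nuf2 and Spc25 had the larger change of each pair. With length and GC offsets the log2 change was 1.27 for Nuf2 and 0.32 for Ndc80, the smallest of the 4 subunits. Nuf2 per Ndc80, per gene length, went from 0.69, 0.686 and 0.784 to 1.44, 1.4 and 1.34, and Spc25 per Ndc80 from 0.796, 0.703 and 0.681 to 1.04, 1.02 and 0.979 (exact permutation p = 0.1 for each). The log2 changes of these 2 ratios were 0.96 and 0.48 as deposited and 0.95 and 0.88 with the offsets. Spc24 per Ndc80 was 1.86, 2.15 and 2 against 1.79, 1.75 and 1.6, a log2 change of -0.22 that turned to 0.77 with length and GC offsets. The rise of Spc24 itself was 0.43 on the log2 scale and 1.08 with these offsets, beside 1.13 and 1.19 for Spc25, so that most of the gap between this pair was not present with the offsets. The ratio of Spc25 to Spc24 was not tested.

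The chromosomal passenger complex corrects wrong attachments and later acts in cytokinesis, and its 4 genes rose 1.63-fold to 2.13-fold as deposited. Its kinase gene Aurkb had 63.1, 59 and 57.9 CPM in controls and 112, 111 and 116 with overexpression (1.88-fold). The scaffold gene Incenp had 135, 131 and 136 against 277, 267 and 278 CPM (2.05-fold), and Cdca8 (borealin) 60.6, 61 and 59.7 against 127, 132 and 128 CPM (2.13-fold). Birc5 (survivin) rose least, 1.63-fold, from 96.3, 97.6 and 92.4 to 156, 155 and 156 CPM. The groups of the 4 genes did not overlap, and in 42.2% of all tested genes every overexpression library was likewise higher than every control. Per Incenp message, Cdca8 stood at 0.376, 0.389 and 0.367 against 0.382, 0.413 and 0.385, and these groups overlapped (exact permutation p = 0.3; log2 change 0.06 as deposited and -0.51 with length and GC offsets). Aurkb per Incenp was 0.689, 0.661 and 0.626 against 0.592, 0.611 and 0.614, and Birc5 per Incenp 0.91, 0.948 and 0.865 against 0.716, 0.74 and 0.714 (exact permutation p = 0.1 for each). The log2 change of Aurkb per Incenp was -0.12 as deposited and -0.04 with length and GC offsets. For Birc5 per Incenp it was -0.33 and -0.67.

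Condensin I, the ring that compacts mitotic chromosomes, held, as deposited, the largest rise of the list, Smc2, and the largest shift among the 19 partner ratios, Ncaph per Smc2. With length and GC offsets Smc2 stood at 2.52 on the log2 scale, below Plk1 at 2.66. Smc2 (ENSMUSG00000028312, chromosome 4, 52439243 to 52488260) had 43.7, 45.4 and 44.9 CPM in controls and 320.1, 317 and 309 with overexpression, a 7.06-fold rise (log2 2.82 ± 0.04, edgeR adjusted p = 2.09e-57). Its ATPase partner Smc4, which together with Smc2 forms the core of both condensins, rose 2.48-fold, from 199.7, 204 and 200.4 to 494, 492 and 509 CPM. The 3 subunits found only in condensin I rose 3.59-fold (Ncapg), 2.39-fold (Ncapd2) and 1.61-fold (Ncaph). Ncaph, the kleisin that closes the ring, had 52.6, 55.1 and 62.2 CPM against 88.3, 94.2 and 91.5. Reads of Ncapg may include those of Lcorl, since 944 exonic bases are shared on opposite strands. Shorter stretches are shared by Cdca8 with 9930104L06Rik (232 bases), Nusap1 with Oip5 (172), Ncapd2 with Scarna10 (237) and Foxm1 with Tex52 (144).

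Per deposited gene length, the ratio of Smc4 to Smc2 was 4.81, 4.72 and 4.69 in the 3 control libraries and 1.62, 1.63 and 1.73 with overexpression. Ncaph per Smc2 went from 1.53, 1.54 and 1.76 to 0.351, 0.378 and 0.377, a factor of 4.37 downward, and Ncapd2 per Smc2 from 1.59, 1.53 and 1.66 to 0.511, 0.55 and 0.559. By FPKM, which rests on the deposited lengths, Smc2 was the lowest of the 5 but for Ncapg in the controls. With overexpression Smc2 was second to Smc4, at 55.7 against 92.6 FPKM. Ncapg per Smc2 fell as well, from 0.744, 0.698 and 0.701 to 0.365, 0.356 and 0.367. None of these 4 ratios overlapped between groups (exact permutation p = 0.1 for each, 0.119 adjusted over 19 pairs). With length and GC offsets their log2 changes, all downward, ran from -1.76 to -1.01.

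**Figure D4:**
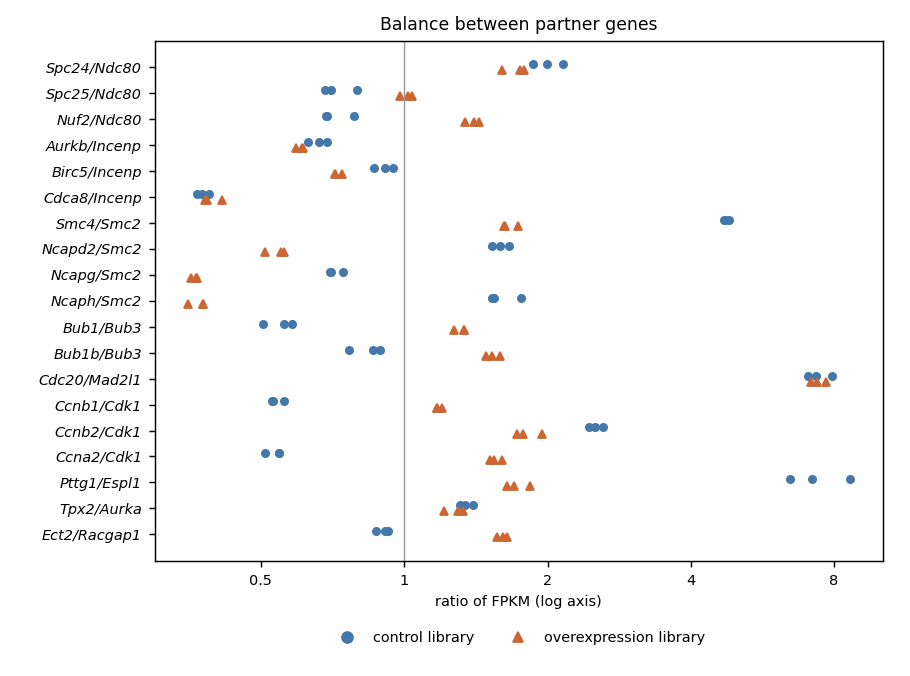
Ratio of FPKM between 19 pairs of partner genes (vertical axis) in each control library (circles) and overexpression library (triangles), on a log axis. In 16 of the 19 pairs the groups do not overlap, 7 higher and 9 lower with overexpression. The share among other pairs of genes was not computed, and 86% of all tested genes were called in either direction. The count is therefore no result about these pairs. The 4 condensin ratios to Smc2 and Pttg1 per Espl1 lie furthest apart to the left. With length and GC offsets Spc24 per Ndc80 and Ccnb2 per Cdk1 are higher instead of lower, and Cdca8 per Incenp and Cdc20 per Mad2l1 also change sign.

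Of the other 2 genes of chromosome structure, Top2a, the topoisomerase that untangles sister DNA, was the most abundant message of the list with overexpression. It had 453, 439 and 456 CPM in controls and 1299.7, 1293 and 1292 with overexpression (2.88-fold, edgeR adjusted p = 3.32e-55). Mki67, whose protein coats mitotic chromosomes, had 219.6, 214 and 214 against 1016, 1025 and 1039 CPM (4.75-fold, edgeR adjusted p = 8.14e-62). The SD within a group was at most 11.6 CPM in Mki67 and 8.82 CPM in Top2a, small beside either rise.

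The 2 genes of sister separation parted. Espl1, which encodes separase, the protease that cuts cohesin at anaphase (ENSMUSG00000058290, chromosome 15, 102296266 to 102324357), had 30.7, 25.1 and 27.6 CPM in controls and 131, 133 and 133 with overexpression (4.76-fold, log2 2.25 ± 0.05, edgeR adjusted p = 1.15e-43). Pttg1, which encodes securin, the inhibitor of separase (ENSMUSG00000020415, chromosome 11, 43420250 to 43426251), had 45.5, 49.5 and 45.3 CPM against 49.2, 56 and 52, and the groups overlapped. Its log2 fold change of 0.17 ± 0.06 was called by edgeR (adjusted p = 0.00835), turned to -0.06 with upper quartile scaling (edgeR adjusted p = 0.316) and rose to 0.47 with length and GC offsets. Without overexpression replicate 2 the edgeR adjusted p was 0.0804, and over all 16 alternatives the adjusted p (edgeR, DESeq2 or limma) ran from 3.92e-11 to 1, with 6 not called. The direction of Pttg1 is therefore not settled by these data. Securin per separase message, per gene length, went from 6.48, 8.62 and 7.19 to 1.65, 1.84 and 1.7 (exact permutation p = 0.1), a factor of 4.27 downward, and its log2 change of -2.09 was -2.00 with the offsets.

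The spindle assembly genes rose by 1.45-fold to 5.45-fold. Aspm, which gathers microtubules at spindle poles (ENSMUSG00000033952, chromosome 1, 139454772 to 139494091), had 27.6, 28.2 and 30.2 CPM in controls and 155, 156 and 158 with overexpression (log2 2.45 ± 0.05, edgeR adjusted p = 1.09e-47). Hmmr, a spindle protein also known as a hyaluronan receptor, went from 36.3, 32.8 and 34.6 to 161, 162 and 159 CPM (4.64-fold). Tpx2, the activator of Aurora A, went from 115, 114 and 117 to 275, 269 and 277 CPM (2.38-fold), beside 2.51-fold for Aurka. Tpx2 per Aurka was 1.31, 1.4 and 1.34 against 1.33, 1.21 and 1.29, with groups that overlapped (exact permutation p = 0.2). Its log2 change was -0.08 as deposited and -0.66 with length and GC offsets. Nusap1, a microtubule-bundling protein, rose 1.45-fold, from 50.3, 50.6 and 58.4 to 77.6, 76.3 and 77.7 CPM.

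All 4 cytokinesis genes rose, each more than 2-fold, beside 14.8% of all tested genes with such a rise. Anln, the actin-binding scaffold of the cleavage furrow (ENSMUSG00000036777, chromosome 9, 22332012 to 22389188), had 162, 165 and 161 CPM in control libraries against 833, 838 and 822 in overexpression libraries (5.11-fold, log2 2.35 ± 0.03, edgeR adjusted p = 8.15e-62). Ect2, the exchange factor that activates RhoA at the furrow, had 69.1, 67.3 and 69.6 against 309, 308 and 305 CPM (4.47-fold). Its activator Racgap1 had 98.2, 102 and 100.5 against 259.8, 246 and 248 CPM (2.51-fold), so that Ect2 per Racgap1, per gene length, went from 0.924, 0.871 and 0.911 to 1.56, 1.64 and 1.61 (exact permutation p = 0.1). With the deposited lengths this ratio went from below to above 1. Prc1, which bundles the central spindle, had 37.1, 33.8 and 34.5 against 161, 152 and 144 CPM (4.33-fold), and 911 of its exonic bases are shared with Rccd1 on the opposite strand.

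Gene length and GC content moved with these values. Averaged over counted reads, the genes were 5091 to 5119 bases long in the control libraries and 6021 to 6050 bases with overexpression. Across the 43 genes the log2 fold change and log2 length had a Pearson r of 0.51 and a Spearman rho of 0.49, and across the 11809 tested genes 0.27 and 0.33. For GC content the Pearson r and Spearman rho were -0.22 and -0.26 across the 43 and -0.28 and -0.32 across tested genes. These are descriptions across genes that share the same 6 libraries. The offsets below were fitted to length and GC together, and the part of each was not tested. The 11 shortest members (1531 to 4083 bases) had a median log2 fold change of 0.91 and the 11 longest (7066 to 15433 bases) 2.12. With offsets for a length and GC trend fitted in each library, all 43 genes were still called higher, against 48.3% of all tested genes. The median of the 43 was then 1.48 beside 0.13 for all tested genes, and the medians of the shortest and longest members were 1.19 and 1.57. Plk1, Cdc20 and Spc24 became larger (log2 2.66, 2.24 and 1.08), and Cenpf smaller (1.57), each by more than 1.5-fold.

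**Figure D5:**
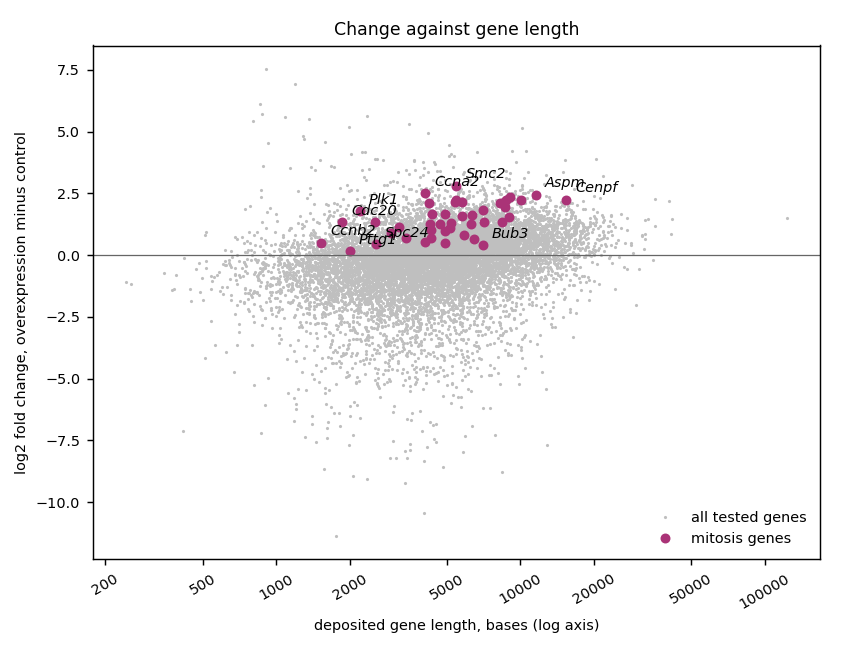
The log2 fold change, overexpression minus control, against deposited gene length on a log axis, for all 11809 tested genes (grey dots) and the 43 mitosis genes (large dots, 10 of them named). The mitosis genes lie above 0 along the whole range of their lengths and higher among long genes, with Pttg1 nearest to 0 (-0.06 with upper quartile scaling).

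The overexpressed microRNA pairs with targets mainly through its seed, bases 2 to 8. RefSeq gives the mature mmu-miR-28a-3p (22 bases, GRCm38.p6, chromosome 16, 24827908 to 24827929, plus strand) as follows, with the seed in capitals.
miR-28a-3p: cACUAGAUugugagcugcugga
The longest annotated 3′ UTR of 4 of the 43 genes (9.30%) held the matching site ATCTAGT, against 785 of 11679 tested genes with a 3′ UTR (6.72%). These 4 sites are printed with 11 bases on either side and the site in capitals, since a site is where a microRNA would act to lower a message.
Ccnb1, position 195 of 1028 bases: ttaaaaactgcATCTAGTtttaacagtgg
Ndc80, position 3226 of 3575 bases: tatagttatttATCTAGTtcttttgactt
Smc2, position 1386 of 1605 bases: atttgatcacaATCTAGTcaatgccagct
Smc4, position 1948 of 3828 bases: tcggttatttgATCTAGTtaaagtgaaaa
All 4 messages rose, Smc2 7.06-fold, Ccnb1 4.33-fold, Smc4 2.48-fold and Ndc80 1.58-fold. Their median log2 fold change was 1.71, and 1.33 for the members without a site. Among all tested genes the medians were 0.33 with the site and -0.05 without it. These medians carry no offsets for length. The log2 fold change rose with gene length (Spearman rho 0.33 over all tested genes), and a longer UTR has more room for a site. The median UTR was 893 bases for the members and 1379 for tested genes, and 1028 to 3828 for the 4 members with a site. The part of length in these medians was not tested. The table lists 0 microRNA genes, and the level of miR-28-3p itself was not analysed here.

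Other genes of mitosis, 127 listed by function and 126 of them tested, rose less uniformly. Of these 126, 96 were called higher, 17 lower and 13 were not called by edgeR, with a median log2 fold change of 0.82, and with upper quartile scaling 84 were called higher and 28 lower. Of all 11809 tested genes 42.1% were called higher and 43.9% lower. With upper quartile scaling 3961 of all tested genes were called higher and 6288 lower. The counts of each list below stand beside these shares. In the rest of the kinetochore 21 of 29 rose and 4 fell. Knl1, the scaffold for BUB1, rose 6.65-fold, Cenpi 4.72-fold and Hjurp, the loader of CENP-A, 2.3-fold, while Cenpx fell 1.66-fold and Cenpt 1.32-fold, but with length and GC offsets they stood at 0.26 and -0.0042 on the log2 scale. In the rest of the checkpoint 10 of 11 rose, among them Trip13 (3.2-fold), which dismantles MAD2 complexes, the nuclear pore protein gene Tpr (3.01-fold) and Kntc1 (3-fold). Mad2l1bp fell 1.32-fold and stood at 0.45 on the log2 scale with the offsets.

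Condensin II, which shares Smc2 and Smc4, was uneven too. Ncapg2 rose 6.21-fold and Ncapd3 4.04-fold, while Ncaph2 was called lower with a log2 fold change of -0.08 (edgeR adjusted p = 0.0311), its groups overlapped, and with length and GC offsets it stood at 0.48. Of the 14 cohesin genes 12 rose, by a median log2 of 0.87 over the list, among them Pds5a (2.57-fold, log2 1.36, and 0.60 with length and GC offsets), Rad21, the cohesin subunit cut by separase (2.2-fold), and Smc3 (1.93-fold). Hdac8, the deacetylase that recycles cohesin, fell 2.98-fold, and Mau2 was not called (0.03). Of 18 genes of the anaphase-promoting complex and its regulators, 9 were called higher, 6 lower and 3 not called (median 0.12). Of all tested genes 42.1% were called higher and 43.9% lower. With upper quartile scaling 7 genes of the complex and its regulators were called higher and 8 lower (median -0.11). Anapc1, its largest subunit, rose 3.01-fold (log2 1.59, and 0.97 with length and GC offsets), Cdc27 2.14-fold and Anapc5 1.57-fold, while the small subunits Anapc11, which holds the RING domain, and Anapc16 fell 2.11-fold and 1.97-fold.

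Of 15 other entry genes tested 14 rose and Ensa, a substrate of Greatwall, was not called (-0.04); with upper quartile scaling 10 were called higher and 2 lower. Nek2, a centrosomal kinase, rose 2.86-fold, the kinase gene Melk 2.43-fold and the phosphatase gene Cdc25a 2.34-fold. In the spindle and centrosome list 14 of 17 rose and 1 fell. Those with the smallest p were Haus6 of the augmin complex (3.85-fold), Ckap5, a microtubule polymerase (2.87-fold), and Ckap2l (2.46-fold). Haus1, also of augmin, fell 1.33-fold, and Haus8 and Tubg1 were not called (0.05 and 0.09, with the latter at 1.01 with length and GC offsets). Of 10 other cytokinesis genes 7 rose, among them Cep55, the midbody scaffold (3.23-fold), Rock2 (2.18-fold, log2 1.13, and 0.46 with length and GC offsets) and Pdcd6ip (2.09-fold). The ESCRT subunit gene Chmp4b and the septin gene Sept9 fell 1.86-fold (log2 -0.05 with the offsets) and 1.81-fold, and Rhoa was not called (0.03).

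The regulators that read the promoter motifs above moved in part. Of 9 genes of the MuvB complex, B-MYB and NF-Y, 7 rose, 1 fell and 1 was not called, and with upper quartile scaling 5 were called higher and 2 lower. Mybl2, which encodes B-MYB, the partner of MuvB in late cell cycle transcription, rose 3.73-fold. Lin54, the MuvB subunit that binds the homology region, rose 2.86-fold, and Lin37, another MuvB subunit, fell 2.93-fold (log2 -1.55, and -0.55 with length and GC offsets). Of the NF-Y subunits Nfya rose 2.03-fold, Nfyc rose 1.51-fold and Nfyb was not called (log2 -0.0029). With upper quartile scaling Nfyb, Mau2, Ensa, Haus8, Tubg1 and Rhoa were each called lower.

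The authors' deposited table of fold changes also gives all 43 genes as higher with an adjusted p under 0.05, and its log2 fold changes differ from those of edgeR by at most 0.0128. That table was made from the same libraries and is no independent evidence. Against a minimum change of 1.5-fold, edgeR called 37 of the 43 higher, beside 23.4% of all tested genes. The 6 not called were Ccnb2, Cdc25c, Bub3, Spc24, Nusap1 and Pttg1. Upper quartile scaling lowered the median of all tested genes from -0.03 to -0.26 and left 38.6% instead of 49.0% of all calls upward. Under it 42 of the 43 genes were still called higher.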

How the data were processed

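Libraries of polyadenylated RNA were made with an Illumina TruSeq kit after Trizol extraction, per the labels' protocols. The authors deposited raw read counts per gene for each of the 6 libraries, per the file headers, with FPKM values that are the counts divided by the deposited gene length and column total (recomputed to within 0.001%). The authors also deposited a log2 fold change per gene and its adjusted p-value; the numerator follows the mean counts of the overexpression libraries. Per the submitters' processing notes the tools were HISAT2, HTSeq and DESeq, with no versions. The notes name mm9, but the coordinates of all 43 genes, and of 21604 of 21936 listed genes, equal those of GENCODE release M21 on GRCm38, so coordinates here are GRCm38. For strand setting and reads shared with paralogs or pseudogenes, nothing is given in the sources used here.

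Counts were compared with edgeR 4.0.16 in R 4.3.3 (filterByExpr with its minimum count of 10, TMM scaling, robust quasi-likelihood F test, two-sided), which tested 11809 genes. The method was tested on simulated data with most genes unchanged and no length trend. Those settings differ from these data, where 86% of tested genes were called. The simulation therefore says nothing of scaling or length here. Standard errors are the absolute log2 change over the square root of F. The biological coefficient of variation was 2.93%. Ratios of FPKM were compared by exact two-sided permutation. Gene length came from the table, GC content and 3' UTRs (at least 50 bases) from GENCODE M21 and promoter windows from RefSeq. The offsets are fitted values, per library, of natural splines on log2 length and GC. Alternatives used DESeq2 1.42.0 and limma 3.58.1. Intervals for a count of 0 take 3 counts and cover counting error only. The rule for naming genes took all 43 members and, of each list of other mitosis genes, the 3 called higher and 2 called lower with the smallest p, plus those lower or not called where there were 5 or fewer. Nfyc was named outside that rule, to complete the NF-Y subunits. The members and lists were chosen with earlier results of these data known. The read statistics were not used here.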

Additional observations from a re-analysis of the deposited data

How the results depend on the processing

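The call of all 43 mitosis genes as higher held in every alternative tried except for 6 genes against a 1.5-fold minimum and for Pttg1, which was also not called with upper quartile scaling (log2 -0.063, the reverse direction), in FPKM with any pseudocount or filter tried, and without overexpression replicate 2. The median log2 fold change of the 43 was 1.33. Taken for each of the 3 overexpression libraries against the control mean, this median had an SD of 0.017 between libraries. That SD leaves out the spread of the controls and of the genes, whose changes ran from 0.17 to 2.82. The median became 1.11 with upper quartile scaling, 1.36 without the filter on low counts and 1.48 with length and GC offsets. In FPKM it was 1.19 with a pseudocount of 1, with or without a filter at a mean of 0.5, and 1.23 with a pseudocount of 0.1. Leaving out each library in turn gave medians of 1.34 to 1.35, 42 to 43 members called, and 95 to 97 other mitosis genes called higher. Of the other mitosis genes, 17 were called lower, 28 with upper quartile scaling and 8 against a 1.5-fold minimum. All tested genes called fell from 10159 to 5947 against that minimum. Of the partner ratios, length and GC offsets turned Spc24 per Ndc80 to 0.77, Cdca8 per Incenp to -0.51, Cdc20 per Mad2l1 to 1.39 and Ccnb2 per Cdk1 to 0.12 (log2 change). Cdc20 per Mad2l1, near 0, also ran from -0.0406 to 0.0432 as single libraries were left out, positive without control replicate 2 and without overexpression replicate 3 (0.0222). The cause of these shifts was not tested.

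Whether the replicate numbers of the titles pair libraries is not settled. Deviations of same-numbered libraries from their group means correlated by 0.0151, 0.0257 and 0.0109 over 9160 genes. The 3 same-numbered correlations were the highest of each library, as a hint from the data only. With the replicate number as a block 43 members were called higher, and all tested genes called went from 10159 to 10116.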
